A study of Mus musculus with 24 samples.

Results

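The uroplakins are a small family of membrane proteins named for the urothelium, the epithelium that lines the bladder and the urinary tract. All 5 family members listed for this account were on the array, Upk1a, Upk1b, Upk2, Upk3a and Upk3b. The array held 28655 gene names in all, after probes were matched to RefSeq gene symbols where possible. The uroplakins were found as every probe whose gene name in the scanner files is one of these symbols. That gave 6 probes, 2 for Upk1a and 1 for each of the others. All 6 probes were well above background in both dyes on 24 of 24 arrays, none was saturated, and all 5 genes passed the filter on dim probes.

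The tissue was the urogenital sinus (UGS), the embryonic tube of endoderm with its mesenchyme that gives rise to the prostate, the urethra and the bladder neck, from C57BL/6J mouse embryos. In the 6 h and 12 h comparisons, pregnant females were given vehicle or 50 mg/kg of dihydrotestosterone (DHT), a potent androgen, on day 16 after conception. Female embryos were then dissected after 6 or 12 h, in 4 pairs of pools at 6 h and 3 pairs at 12 h. In the third comparison, 5 pools of untreated male UGS were set against pools of untreated female littermates at 17.5 days post coitum (dpc), which the labels also call a 48 h time point. The labels name no transgene or deletion in any group. Embryos were sexed by looking at the gonads, the accessory ducts were cut away, and each pool mixed several embryos. Each pair of pools was hybridised together on an array and again with the dyes exchanged. The labels do not say that pools of different pairs came from different litters, so p-values measure the spread between these pools. In the main fit the spread of a gene was estimated once, over the pairs of all 3 comparisons. A p-value for a comparison therefore also carries the spread of the others.

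Uroplakins work as pairs. The tetraspanins uroplakin 1a and 1b, each crossing the membrane several times, bind partners that cross it once: uroplakin 1a binds uroplakin 2, and uroplakin 1b binds uroplakin 3a or 3b. The pairs leave the endoplasmic reticulum together and are packed into stiff plaques on the surface of umbrella cells, the outermost urothelial layer, where they help make the barrier to urine. Upk1b and Upk3b are also known from mesothelium, the lining of the body cavities.

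Promoter sequences are shown because androgen and urothelial regulators can act through DNA near a gene's start. Sites farther away were not searched. The table of RefSeq promoters used here (GRCm38.p6) matched 3 of the 5 uroplakins. Each stretch is the 250 bases before the gene's start, 5′ to 3′ on the gene's own strand, and capitals mark a match to a searched motif.
Upk1a, chr7:30612735-30612984, minus strand: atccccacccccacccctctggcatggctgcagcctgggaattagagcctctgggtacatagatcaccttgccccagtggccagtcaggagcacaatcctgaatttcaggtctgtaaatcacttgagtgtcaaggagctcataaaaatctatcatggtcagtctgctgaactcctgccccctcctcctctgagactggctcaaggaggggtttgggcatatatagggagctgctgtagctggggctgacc
Upk3a, chr15:85016891-85017140, plus strand: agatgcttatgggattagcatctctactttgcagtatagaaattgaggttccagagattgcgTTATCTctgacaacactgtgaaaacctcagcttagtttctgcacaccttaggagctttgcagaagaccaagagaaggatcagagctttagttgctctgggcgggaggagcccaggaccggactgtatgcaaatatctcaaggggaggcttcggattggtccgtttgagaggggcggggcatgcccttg
Upk3b, chr5:136038246-136038495, plus strand: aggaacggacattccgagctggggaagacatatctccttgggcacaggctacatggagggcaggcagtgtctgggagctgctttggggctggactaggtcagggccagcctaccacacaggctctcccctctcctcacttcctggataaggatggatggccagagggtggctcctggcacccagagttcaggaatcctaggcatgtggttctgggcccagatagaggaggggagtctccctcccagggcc
The motifs were searched on both strands. AGATAA, bound by GATA factors, matched once, on the minus strand of Upk3a at bases 63 to 68, its first base lying 188 bases before the gene's start, and occurs in 9.99% of the 32841 RefSeq promoter windows of this length. The androgen response element, AGAACA and TGTTCT with 3 bases of any kind between them, found in 0.00913% of the windows, and its single site AGAACA, which the full element contains and which is found in 16.1%, matched in none of the 3. TATAAA (12.4%), GGGCGTGG for KLF factors (4.8%), TGTTTAC for FOXA factors (3.17%), CCGGAAGT for ETS factors (2.88%), AACCGGTT for GRHL factors (0.116%) and AGGTCA repeated with 1 base between for nuclear receptor pairs (0.0335%) did not match either.

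The median spot signal before background correction was 102.3 to 151.1 in Cy3 and 98.14 to 146.2 in Cy5. Signal was detected for 28 of 28 epithelial genes, 17 of 18 urothelial marker genes and 8 of 10 mesothelial genes, above background on all 24 arrays. Detection does not set these cell types apart, since most probes were detected. Of 41174 probes, 35477 were above background on at least 6 of 24 arrays, and 8 of 9 intestinal genes passed that filter too. The sex labels held for the 12 h and the male-female pools. At 6 h they did not for 3 of the 4 vehicle pools: Eif2s3y, a Y-linked gene, had log2 levels of 8.65, 7.64 and 7.80 in the libraries labelled female vehicle of pairs 2, 3 and 4, against 6.02 in that of pair 1. Female pools at 17.5 dpc lay between 5.99 and 6.37 and male pools between 8.51 and 9.01. Pair 1 is therefore also given alone for 6 h. Xist, an RNA of female cells, was at 11.58, 10.29, 11.24 and 11.21 in the 6 h vehicle pools of pairs 1 to 4. Male pools at 17.5 dpc lay between 6.42 and 6.97, so the vehicle pools with Y-linked RNA also held female RNA. The 6 h log2 ratios of Xist were −0.35, 1.07, 0.22 and −0.13, so Xist was lower in the vehicle pool in pairs 2 and 3 but not in pair 4. Each comparison was hybridised on its own day, so that a difference between comparisons cannot be told apart from that day or, for the male-female set, from age and treatment.

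At 6 h, no uroplakin passed the threshold, although the estimates of all 5 lay below 0. Upk2, Upk3a and, by little, Upk1a were lower in the DHT pool in 4 of 4 pairs. The comparison asks which genes of the female UGS respond first to DHT. A log2 ratio is the level in the DHT pool minus that in the vehicle pool, so −1 would be 2 times less RNA. Among all 24717 genes, limma called 1.67% at an adjusted p under 0.05, 1.17% as lower, and 0 of 5 uroplakins. An unadjusted p under 0.05 was reached by 1 of 5, Upk2, and by 14.3% of all genes.

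Among the tetraspanins, Upk1a gave log2 ratios of −0.13, −0.02, −0.04 and −0.02 in pairs 1 to 4 at 6 h, with a mean of −0.05 ± 0.05 (SD, n = 4). The second Upk1a probe gave −0.15, −0.02, −0.10 and −0.01. Both probes placed DHT and vehicle pools close together. On the brighter probe every array without dye swap gave a 6 h ratio above 0 and every dye-swapped array a ratio below 0. Upk1b had log2 levels of 8.58, 8.43, 8.54 and 8.68 in the DHT pools and 9.11, 8.98, 8.65 and 8.61 in the vehicle pools. The DHT pool was lower in pairs 1 to 3 and higher in pair 4, and the groups overlapped. The mean log2 ratio of Upk1b was −0.28 ± 0.31 (SD, n = 4), and limma gave an adjusted p of 0.509.

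Upk2, the partner of uroplakin 1a, had log2 levels of 8.43, 8.47, 8.34 and 8.50 in the DHT pools and 8.91, 8.92, 8.62 and 8.67 in the vehicle pools. Every DHT pool was below every vehicle pool. The log2 ratios were −0.49, −0.46, −0.28 and −0.16, with a mean of −0.35 ± 0.15 (SD, n = 4; SE of the fit 0.12), a ratio of 0.787. This did not pass the threshold over all genes (limma, adjusted p = 0.181). In pair 1, whose vehicle pool carried no Y-linked RNA, it was −0.49.

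Upk3a, a partner of uroplakin 1b, was at 8.30, 8.46, 8.08 and 8.41 in the DHT pools and at 8.61, 8.85, 8.35 and 8.60 in the vehicle pools. The DHT pool was the lower of each pair, while the 2 groups overlapped. Its log2 ratios were −0.31, −0.39, −0.27 and −0.19, a mean of −0.29 ± 0.08 (SD, n = 4; SE of the fit 0.19; limma, adjusted p = 0.582). That SE and p-value take in the wider spread of Upk3a at 12 h (SD 0.61) and between the sexes (SD 0.52). Upk3b gave −0.01, −0.26, −0.42 and 0.12, a mean of −0.14 ± 0.24 (SD, n = 4). In pair 1 alone the log2 ratios were −0.13 for Upk1a, −0.53 for Upk1b, −0.31 for Upk3a and −0.01 for Upk3b, with no replicate. How far male RNA in the vehicle pools enters the 6 h ratios was not tested.

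**Figure D1:**
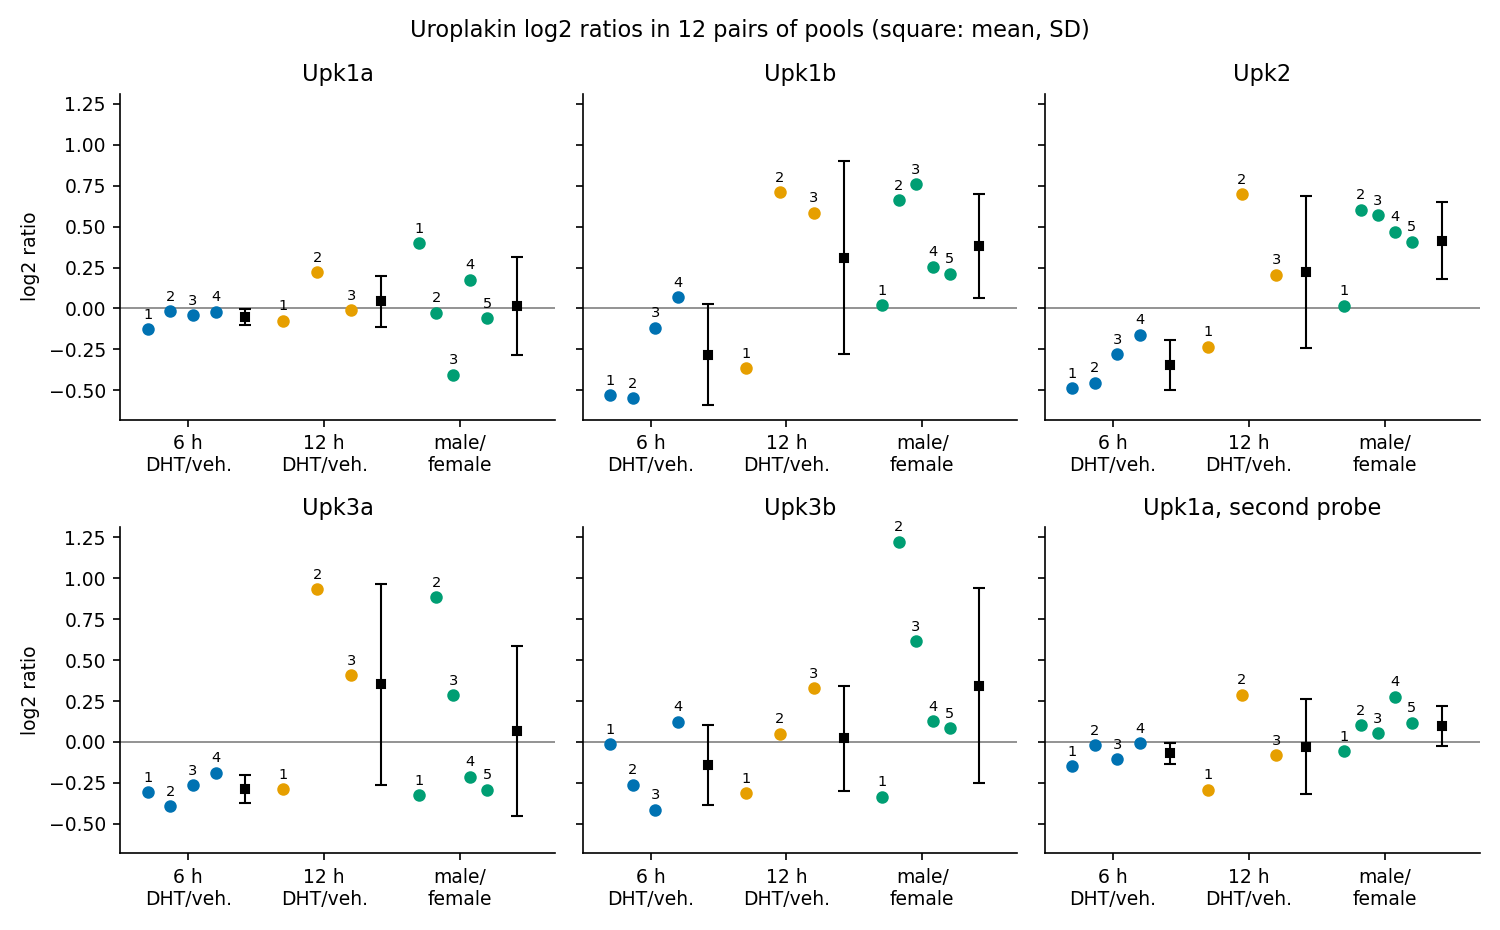
Log2 ratio of each uroplakin probe in each of 12 pairs of pools (vertical axis; DHT over vehicle at 6 and 12 h, male over female at 17.5 dpc). Numbered points are pairs and squares with bars are the mean and SD. Upk2 lies below 0 in 4 of 4 pairs at 6 h and above 0 in 5 of 5 male-female pairs, and pair 1 is the lowest of the 12 h pairs for all 6 probes.

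At 12 h, no uroplakin passed the threshold either, and the 3 pairs disagreed. Pair 1 gave negative log2 ratios for all 6 probes and pair 2 positive ones, so the spread between pairs was wide. Limma called 0.287% of all genes and 0 of 5 uroplakins. An unadjusted p under 0.05 was reached by 0 of 5 and by 14.1% of all genes.

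Upk1a gave −0.08, 0.22 and −0.01 in pairs 1 to 3 at 12 h, and its second probe −0.29, 0.29 and −0.08. Upk1b was at log2 levels of 8.25, 9.34 and 8.85 in the DHT pools and 8.62, 8.63 and 8.27 in the vehicle pools. Its log2 ratio was 0.31 ± 0.59 (SD, n = 3; limma, adjusted p = 0.513). Upk2 was at 7.54, 8.61 and 8.05 with DHT and 7.78, 7.92 and 7.85 with vehicle. The vehicle pools lay close together and the DHT pools lay on both sides of them, with a mean log2 ratio of 0.22 ± 0.47 (SD, n = 3; limma, adjusted p = 0.526).

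Upk3a was at 8.29, 9.68 and 8.55 in the 12 h DHT pools and 8.58, 8.74 and 8.14 in the vehicle pools. The DHT pool of pair 2 stood above the other 5 pools. The mean log2 ratio was 0.35 ± 0.61 (SD, n = 3; limma, adjusted p = 0.527). Upk3b gave log2 ratios of −0.32, 0.05 and 0.33, which cancel to a mean of 0.02 ± 0.32 (SD, n = 3). Without pair 2 the mean of Upk2 became −0.01, and without pair 3 that of Upk3b became −0.13.

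Between the sexes, Upk2 was higher in male than in female UGS and passed the threshold; the other 4 uroplakins did not. Limma called 7.58% of all genes, 3.72% as higher and 3.86% as lower in males, and 1 of 5 uroplakins as higher. A single call among 5 genes is too few to set the family apart from that background.

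Upk2 had log2 levels of 8.72, 9.15, 9.11, 9.27 and 8.73 in the male pools of pairs 1 to 5 and 8.70, 8.54, 8.54, 8.80 and 8.32 in the female pools. The male pool was the higher of each pair, by very little in pair 1, and the groups overlapped. The log2 ratios were 0.02, 0.60, 0.57, 0.47 and 0.41, with a mean of 0.41 ± 0.24 (SD, n = 5; SE of the fit 0.11), a 1.33-fold difference (limma, adjusted p = 0.0335). Pair 1 rests on the dye-swapped array alone, since the scanner software marked the Upk2 spot of the other array as an outlier. The call was lost in 10 of 28 other settings. Leaving out male-female pair 2, 3, 4 or 5 gave adjusted p values of 0.114, 0.0925, 0.114 and 0.0723, and centring each array on its median in place of loess gave a log2 ratio of 0.25 (limma, adjusted p = 0.497).

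Upk1b was at 8.87, 9.37, 9.21, 9.05 and 8.66 in the male pools and 8.85, 8.71, 8.45, 8.79 and 8.44 in the female pools. The male pool was again the higher of each pair. The log2 ratios were 0.02, 0.66, 0.76, 0.26 and 0.21, a mean of 0.38 ± 0.32 (SD, n = 5; limma, adjusted p = 0.167). Upk1a, in contrast, had no shared direction: its log2 ratios were 0.40, −0.03, −0.41, 0.18 and −0.06 on the brighter probe and −0.06, 0.10, 0.05, 0.28 and 0.12 on the second. The 2 probes differed in sign in pairs 1, 2, 3 and 5. The second probe's mean was 0.10 (limma on every probe, adjusted p = 0.552).

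Upk3a was at 9.74, 10.56, 9.69, 9.50 and 9.03 in the male pools and 10.06, 9.67, 9.40, 9.71 and 9.33 in the female pools. It was higher in males in pairs 2 and 3 and lower in pairs 1, 4 and 5, with a mean of 0.07 ± 0.52 (SD, n = 5; limma, adjusted p = 0.918). Without pair 2 the mean turned to −0.14. Upk3b was at 7.39, 8.80, 7.69, 7.33 and 7.03 in the male pools and 7.73, 7.58, 7.08, 7.20 and 6.95 in the female pools. The male pool of pair 2 stood above the other 9. The log2 ratios of Upk3b were −0.34, 1.22, 0.62, 0.13 and 0.08, a mean of 0.34 ± 0.60 (SD, n = 5; limma, adjusted p = 0.315), and 0.12 without pair 2.

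Some mesothelial genes were high in the same pool, and some genes outside the mesothelial list also had high ratios in that pair. In male-female pair 2 the log2 ratio was 2.78 for Msln, which encodes mesothelin, and 1.99 for Upk3bl, a uroplakin-3b-like gene that is no member here. Muc16, a mesothelial mucin, was at 1.72 there and was picked after its values were seen, and Krt19, a keratin that epithelium also makes, was at 0.67. The other 7 of the 10 mesothelial genes lay between −0.22 and 0.17. The mean over the 10 mesothelial genes was 0.48 in pair 2 and between −0.01 and 0.10 in the other 4 pairs, and their mean level in the male pool of pair 2 was 9.20 against 8.63 to 8.79 in the other male pools. Wt1, a transcription factor of mesothelium and urogenital mesoderm, was among those 7, at 0.02. Outside the mesothelial list, Mal, a membrane-raft protein, and the keratin genes Krt8 and Krt18 were at 1.44, 1.19 and 0.88 in pair 2. Each was highest there among the male-female pairs, and they were picked after their values were seen. The mean over the 18 urothelial genes was 0.51 in pair 2 and 0.57 in pair 3, and Msln was at 1.36 in pair 3. The part of all these genes in the Upk3b and Upk3a ratios was not tested.

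**Figure D2:**
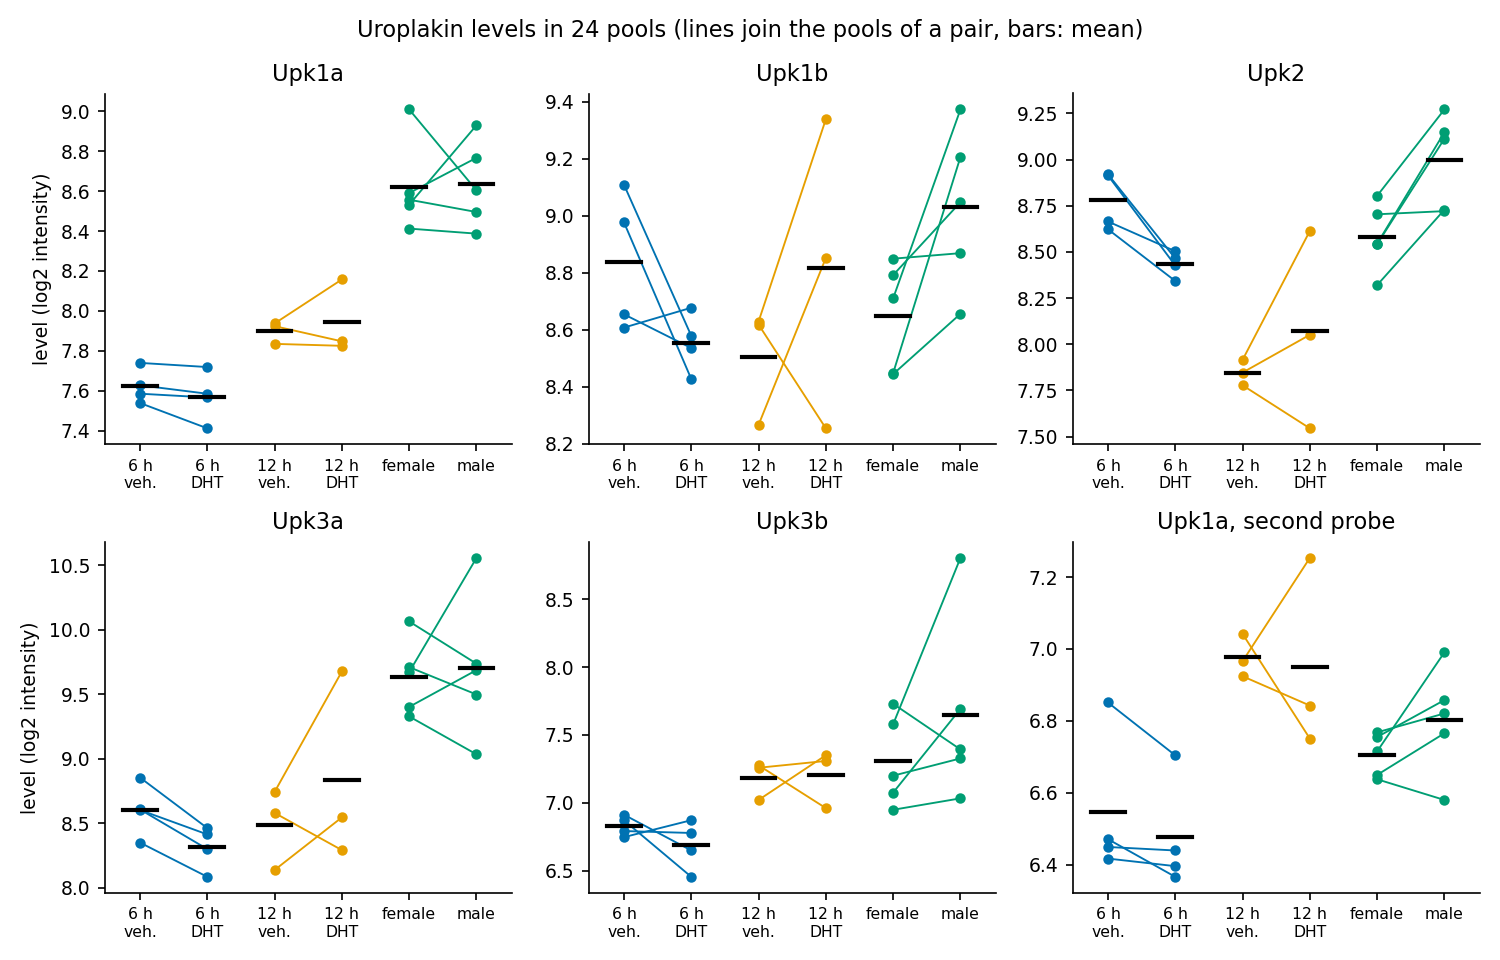
Log2 intensity of each uroplakin probe in every pool, by group (vertical axis; the 2 arrays of a pool averaged); points are pools, lines join hybridisation partners and bars are group means. The DHT pools of Upk2 lie below all vehicle pools at 6 h, and the male pool of pair 2 stands apart for Upk3b at 8.80.

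Only Upk2 differed between comparisons by a test of the difference. Its male-female log2 ratio exceeded its 6 h ratio by 0.76 ± 0.16 (SE; limma, adjusted p = 0.0136), and limma called 6.9% of all genes and 1 of 5 uroplakins in that contrast. The same difference was 0.66 for Upk1b (limma, adjusted p = 0.0987), 0.49 for Upk3b (0.333), 0.36 for Upk3a (0.541) and 0.07 for Upk1a. With pair 1 as the only 6 h pair, the difference was 0.90 (limma, adjusted p = 0.217); the spread then comes from the other comparisons, and the lone pair is assumed to vary like them. The call was also lost without 6 h pair 1 or 2 (limma, adjusted p = 0.0508 and 0.0535). Between 12 h and 6 h, where limma called 0.113% of all genes, the differences were 0.64 for Upk3a, 0.59 for Upk1b and 0.57 for Upk2, and 0 of 5 were called. These 3 of 5 had an unadjusted p under 0.05, as did 14.4% of all genes. Between the male-female and the 12 h ratios, 0 of 5 were called against 1.65% of all genes, and 0 of 5 had an unadjusted p under 0.05, against 15.5%. That difference was 0.32 for Upk3b, 0.19 for Upk2, 0.07 for Upk1b, −0.03 for Upk1a and −0.28 for Upk3a, and the sign turned in at least 1 other setting for each of them except Upk3b.

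The order of the mean levels differed from gene to gene. Upk2 was highest in males at 8.997 ± 0.255 (SD, n = 5), followed by 6 h vehicle at 8.78, females at 8.58, 6 h DHT at 8.43, 12 h DHT at 8.07 and 12 h vehicle at 7.85. Ranges overlapped between males, 6 h vehicle and females, and females overlapped 6 h DHT. The 12 h DHT pools overlapped females, 6 h DHT and 12 h vehicle. The 12 h vehicle pools, at 7.78 to 7.92, lay below all pools of the other times. Upk3a had its highest mean levels at 17.5 dpc, 9.70 ± 0.55 in males and 9.64 ± 0.29 in females (SD, n = 5), against group means of 8.32 to 8.84 at 6 and 12 h. The ranges overlapped, since the highest 12 h DHT pool was at 9.68 and the lowest male and female pools were at 9.03 and 9.33. Upk3b followed the order male, female, 12 h DHT, 12 h vehicle, 6 h vehicle and 6 h DHT, from 7.65 to 6.69, with overlap between neighbours except 12 h vehicle and 6 h vehicle. Upk1b was highest in males at 9.03 and lowest in 12 h vehicle pools at 8.50, and every neighbour in that order overlapped.

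The 2 Upk1a probes did not order the groups alike. On the brighter probe, levels at 17.5 dpc were 8.64 in males and 8.62 in females, above every pool at 6 and 12 h. On the second probe, the 12 h vehicle and DHT pools were highest, at 6.98 and 6.95, and males were at 6.80. No level of 1 probe is set against that of another, because probes bind with different strength.

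The 2 arrays of a pair gave a view of technical error. The median gap between their log2 ratios was 0.08 for Upk1b, 0.09 for Upk1a, 0.12 for Upk2 and Upk3b and 0.33 for Upk3a. The sign was the same on both arrays in 11 of 12 pairs for Upk1b, 11 of 11 for Upk2 and 10 of 12 for Upk3a and Upk3b. For Upk1a it was the same in 7 of 12, and in 6 of 12 on its second probe, where the gap reached 1.03. The Upk3a ratio was higher on the dye-swapped array in 12 of 12 pairs, a dye effect that cancels in the mean of the 2 arrays. The Upk2 ratio was higher on that array in only 1 of 11 pairs, and male-female pair 1, whose value of 0.02 comes from the dye-swapped array alone, lacks this balance.

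**Figure D3:**
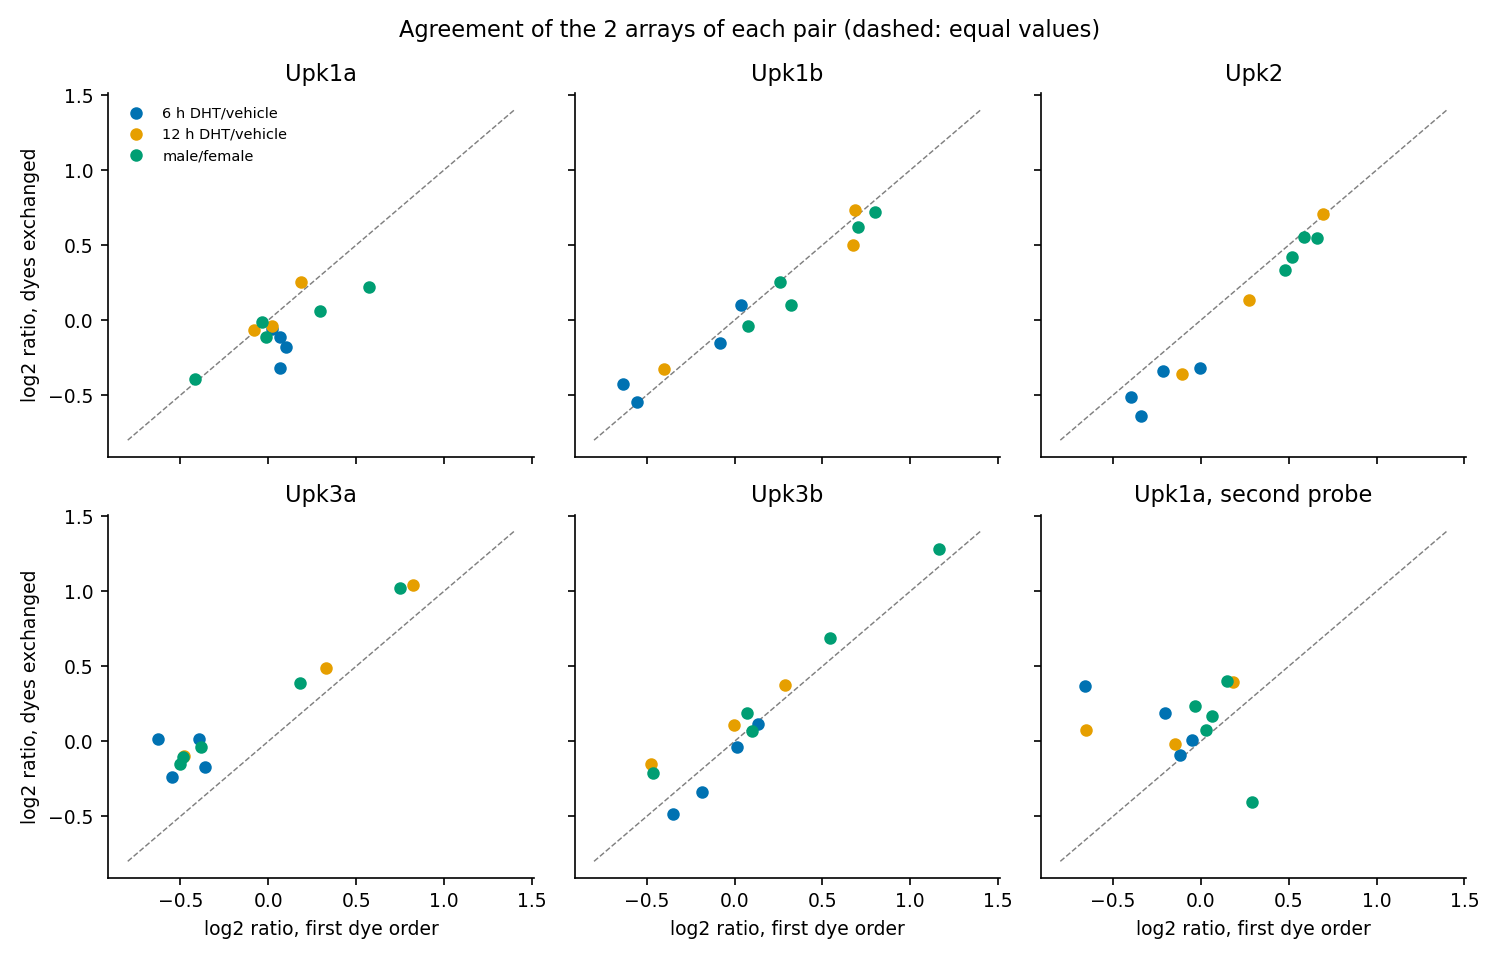
Log2 ratio on the dye-swapped array (vertical axis) against that on the array without swap (horizontal axis), 1 point per pair and probe, both turned to the same direction; the line marks equality. Upk2 and Upk1b lie near the line, and all 12 Upk3a pairs lie above it.

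Over the 12 pairs, Upk1b, Upk2, Upk3a and Upk3b varied together, while no relation with Upk1a passed the threshold. Correlations were taken over 15 relations, with permutation p-values (100000 resamples, two-sided) adjusted over them. The permutations ran over all 12 pairs and not within a comparison, so these p-values include shifts between comparisons. The r within comparisons was given no p-value. Upk1b and Upk2 had Pearson's r = 0.92 (permutation p = 0.0001, adjusted 0.0015) and Spearman's rho = 0.94 (permutation p = 2e-05, the smallest the permutations can give, adjusted 0.00015). Without the 2 pairs farthest from the median of Upk1b, r was 0.87. After each comparison's mean was removed, which sets aside hybridisation day, r was 0.89. Upk1b and Upk3a had r = 0.81 (permutation p = 0.00038, adjusted 0.0023) and rho = 0.85 (permutation p = 0.00088, adjusted 0.0033), with 0.83 without the farthest pairs and 0.82 within comparisons. For the 4 other relations among these genes, r was 0.65 to 0.73, with adjusted p of 0.0143 to 0.0385. Upk1a had r between −0.34 and 0.08 with the other 4, with adjusted p of 0.352 or more. Those values rest on the 2 pairs farthest from the median of Upk1a: without them, r was 0.58 with Upk1b, 0.67 with Upk2, 0.48 with Upk3a and 0.08 with Upk3b.

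Upk1b and Upk2 also varied with the mean of a list of epithelial genes. The mean log2 ratio of 28 epithelial genes was −0.33, −0.28, −0.05 and −0.02 in the 6 h pairs. It was −0.03, 0.14 and 0.36 at 12 h and 0.02, 0.18, 0.38, 0.37 and 0.10 between the sexes. Fewer epithelial cells in a pool and less RNA per cell cannot be told apart in these bulk samples. With that mean, Upk1b had r = 0.87 (permutation p = 0.00046, adjusted 0.0023) and rho = 0.91 (permutation p = 2e-05, adjusted 0.00015), falling to 0.74 without the 2 farthest pairs and 0.74 within comparisons. Upk2 had r = 0.83 (permutation p = 0.001, adjusted 0.00375) and rho = 0.87 (permutation p = 0.00058, adjusted 0.0029), with 0.70 and 0.57. For Upk3a and Upk3b, r was 0.52 and 0.54 (adjusted p 0.115 and 0.099) while rho was 0.67 and 0.76 (adjusted p 0.0351 and 0.0142), with r of 0.34 and 0.39 within comparisons. Upk1a had r = −0.03 with the epithelial mean. With the epithelial mean as a covariate, an alternative added after seeing the data, the male-female log2 ratio of Upk2 was 0.21 (limma, adjusted p = 0.474). With that mean centred within each comparison, which leaves the ratio at 0.41, Upk2 kept its call and Upk1b passed too (limma, adjusted p = 0.0338).

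**Figure D4:**
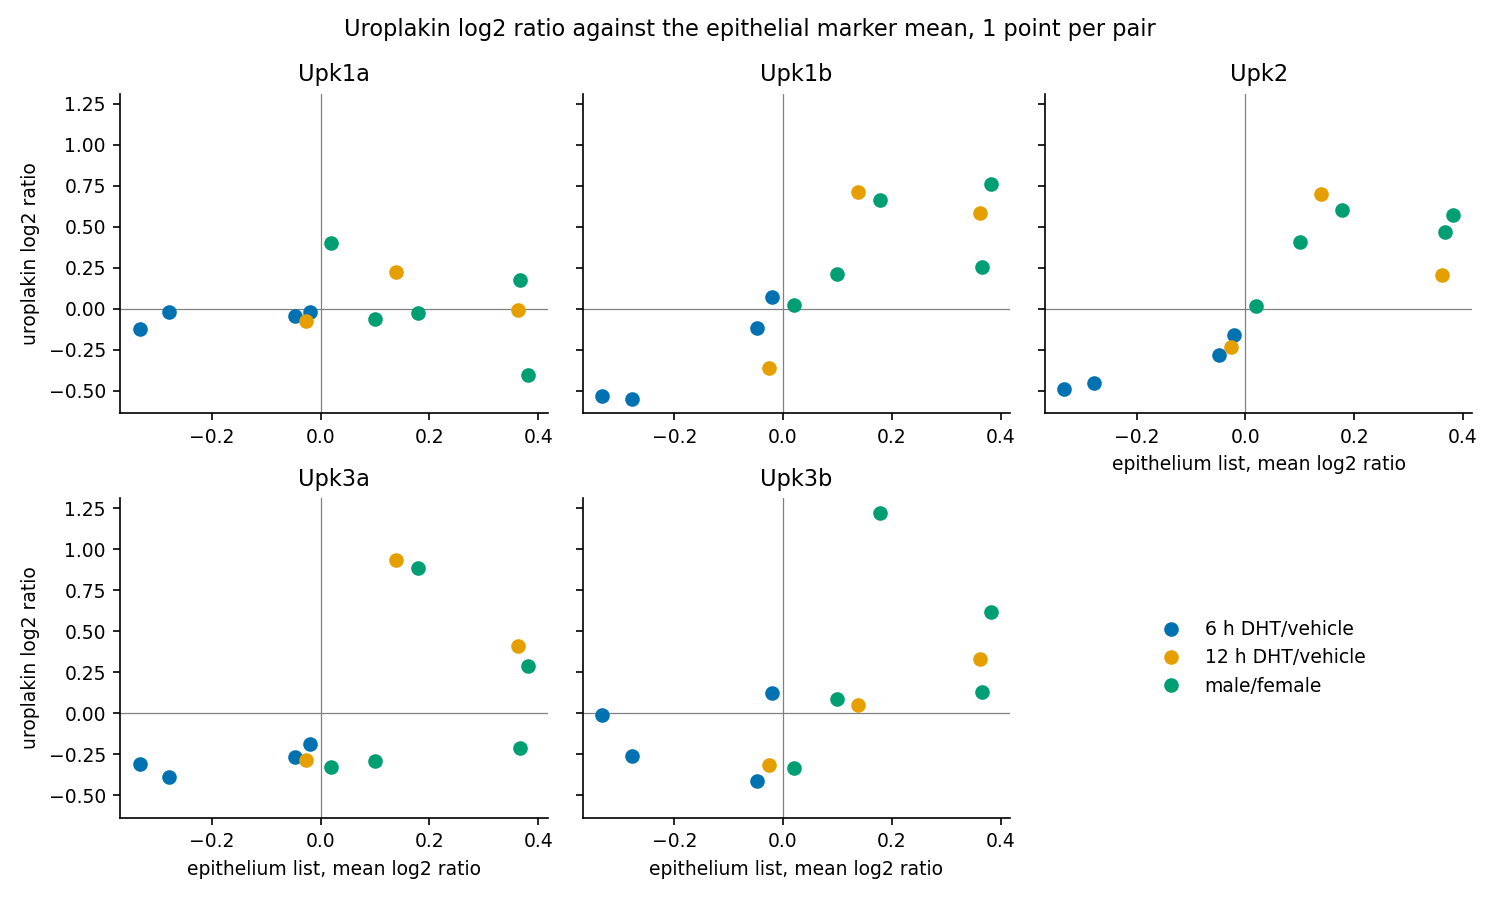
Log2 ratio of each uroplakin (vertical axis) against the mean log2 ratio of 28 epithelial genes (horizontal axis), 1 point per pair of pools, coloured by comparison. Upk1b and Upk2 lie higher where the epithelial mean is higher, at r = 0.87 and 0.83, and Upk1a has r = −0.03.

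Among the genes around the uroplakins, list counts stand beside those of all genes, whose median log2 ratio was within 0.01 of 0 in each comparison. Of all genes, limma called 3.72% as higher and 3.86% as lower in males, 1.17% as lower at 6 h and 0.113% as higher at 12 h. Of 10 genes that deliver uroplakins or shape their membranes, 3 were higher in males: Mal, a membrane-raft protein, at 0.57, Vamp8, a vesicle fusion protein, at 0.28 and Rab11a, a recycling GTPase, at 0.23. At 6 h, Vamp8 was lower at −0.17, and at 12 h 0 of 10 passed. Of 12 measured urothelial regulators, 3 were higher in males: Gata3 at 0.62, Foxa1 at 0.50 and Elf3 at 0.41, all transcription factors. Gata3 was lower at 6 h, at −0.49 (limma, adjusted p = 0.00228), with −0.56 in pair 1, and 0 of 12 passed at 12 h.

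Of 18 other urothelial genes, 12 were higher in males, with a median of 0.42 for the list. The largest were Psca, a surface antigen, at 1.02, Upk3bl at 0.82 and Cldn4, a tight junction claudin, at 0.64. The male-female estimates of 2 of the 18 lay below 0, those of Ivl and the keratin gene Krt20. Krt20 was at −0.62, 0.02, 0.23, −0.37 and −0.37 in pairs 1 to 5. At 12 h, Ivl, an envelope protein, was higher at 0.41, and at 6 h 0 of 18 passed, with a median of −0.24. The epithelial list held 10 genes higher and 2 lower in males of 28, with a median of 0.20. The largest changes were Cldn8 at 1.68, Wfdc2 at −1.27 and Bspry at 0.56. Among 25 other tetraspanins, relatives of Upk1a and Upk1b, 4 were higher and 4 lower in males, led by Tspan1 at 1.13, Tspan12 at 0.43 and Tspan18 at −0.38, with a median of 0.00.

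Of 10 mesothelial genes, 3 were higher and 2 lower in males, with Msln at 1.09, Krt19 at 0.45 and Wt1 at −0.34 the largest. Of 14 mesenchymal genes, 6 were lower, led by Col1a1 at −0.67. Skeletal muscle genes reached a median of 0.29 in the male-female pairs, with 0 of 14 called. Their mean was 1.31 in pair 3, where the male-female ratio of Upk1b was highest and that of Upk1a, on its brighter probe, lowest. Upk2, Upk3a and Upk3b were highest in pair 2, where the skeletal muscle mean was −0.41. The part of skeletal muscle in the uroplakin ratios was not tested.

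The genes whose log2 ratios tracked the mean of the uroplakins most closely over the 12 pairs were, among 24670 ranked, Yif1a (r = 0.94), H2ac20 (0.93), ENSMUST00000073115 (0.93), Aen (0.93), Pramel13 (0.92), Trappc5 (0.92), S100a6 (0.92) and Dap (0.91). Of these 8, none passed the threshold in the 6 h, 12 h or male-female comparison. Next came Mal at rank 9 and the keratin genes Krt8 at rank 10 and Krt18 at rank 13, with Upk3bl at rank 31. These correlations were chosen as the highest of all genes and are given as a description, with no test.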

How the data were processed

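Per the file headers, the deposited scanner files hold spot intensity per channel from Agilent Feature Extraction 7.5.1, with the authors' log10 ratio. The deposited series matrix holds log2 ratios, already turned to 1 direction, whose centring is not given in the sources used here. Both ratios served as alternatives. In R 4.3.3 with limma 3.58.1, mean signals were corrected by normexp (offset 50) and loess, outlier spots left out, and the 2 dye-swapped arrays of a pair averaged. Levels were also Aquantile-normalised. Of 41174 probes, 35477 had a channel well above background on at least 6 of 24 arrays, and the brightest probe per gene gave 24717 genes. Limma was fitted over 12 pairs, 1 coefficient per comparison, with Benjamini-Hochberg adjustment at 0.05, and tested on simulated data. Pools sharing a replicate number did not all deviate together, so numbers were not used as pairs. Precision is limited by the number of arrays and pools. The members and gene lists were chosen with earlier results of these data known. Named genes were all uroplakins, at most 3 called genes of a list with the largest change, and the 8 genes most correlated with the uroplakin mean.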

Additional observations from a re-analysis of the deposited data

Results flagged for a closer look

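On the second Upk1a probe, the 6 h vehicle pool of replicate 1 had a log2 level of 6.85 and stood apart from the other 3 vehicle pools, which were at 6.42, 6.47 and 6.45. It was the 1 case in 36 groups examined, and chance gives about 1 in 20. The Upk2 log2 ratio differed between the male-female and the 6 h comparisons by 0.76 in the test of that difference, while hybridisation day and age differed with it. The 6 h vehicle pools of pairs 2, 3 and 4 carried Y-linked RNA, and the call was lost in 5 other settings.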

How the results depend on the processing

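The count of uroplakins called at 12 h and in the male-female minus 12 h difference stayed at 0 in every setting. The male-female count went from 1 to 0 with normexp offset 0 (Upk2 0.48), median centring (0.25), the scanner ratios (0.49), the comparison fitted alone, 6 h pair 1 as the only 6 h pair, and the epithelial covariate not centred (0.21). It went to 2 with all arrays and pair as a random block, and with the centred covariate, in both of which Upk1b joined. Leaving out a replicate gave counts of 0 to 1. The male-female minus 6 h count of 1 went to 0 with median centring, the covariate not centred and 6 h pair 1 only, and to 2 with the random block and the centred covariate. Leaving out a replicate gave 0 to 2, the 2 without 12 h pair 1. The 6 h count of 0 rose to 1 (Upk2) with dye-swapped arrays only (−0.45) and the random block, and the 12 h minus 6 h count to 1 with the random block.

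The replicate numbers were not used to pair the pools. Same-numbered pairs correlated at −0.07 to 0.29 (median 0.12, against −0.04 for other pairs), so not every one was clearly above 0. Of 12 pairs, 4 correlated best with their own number. Whether pools of the same number belong together was not tested. With the replicate number as a block, the male-female minus 6 h count was 2 (Upk1b 0.71), and the 12 h Upk3b ratio was −0.0456.

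Other values changed sign near 0; the cause was not tested. For the male-female minus 12 h difference, Upk1b was −0.0599 and Upk2 −0.012 with median centring, Upk1a was 0.0386 on unswapped arrays only and Upk1b −0.0171 with the covariate not centred. Leaving out a replicate there gave −0.124 to 0.0769 for Upk1a, −0.267 to 0.271 for Upk1b, −0.0378 to 0.428 for Upk2 and −0.604 to 0.0075 for Upk3a. With median centring the male-female ratio was −0.0373 for Upk1a and −0.0045 for Upk3a. On unswapped arrays only, Upk1a was 0.0635 at 6 h and −0.0225 for 12 h minus 6 h, Upk3b −0.0654 at 12 h and Upk3a −0.0879 between the sexes. On swapped arrays only, Upk1a was −0.0471 between the sexes. With the covariate not centred, which was chosen after seeing the data, Upk1b and Upk3b were 0.0102 and 0.0354 at 6 h, Upk3b −0.14 at 12 h and −0.18 for 12 h minus 6 h, and Upk3a −0.12 between the sexes. Leaving out a replicate gave ranges that crossed 0: at 12 h, −0.043 to 0.105 for Upk1a, −0.0142 to 0.451 for Upk2 and −0.133 to 0.190 for Upk3b; between the sexes, −0.079 to 0.122 for Upk1a and −0.137 to 0.166 for Upk3a; and −0.0268 to 0.174 for Upk1a in the male-female minus 6 h difference.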
